A study of Mus musculus with 9 samples.

Results

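The genes described here were the 87 of 21769 genes in the deposited counts whose symbols follow the naming of nuclear-encoded respiratory chain and ATP synthase subunits. Symbols starting with Nduf were taken as complex I (37 genes), Sdh as complex II (4), Uqcr and Cyc1 as complex III (9), Cycs as cytochrome c (1), Cox as complex IV (19) and Atp5 as complex V (17), and symbols marked as pseudogenes were left out. The symbol rule also took in Cox4nb, Atp5s, Atp5sl and Ndufa4l2, which are not known as subunits. It missed Ndufab1, a complex I subunit named apart from the rest, and the subunits encoded by mitochondrial DNA were not analysed here. Expression was measured by sequencing polyadenylated RNA from whole mouse retina, with 3 libraries per genotype and 2 retinae in each library. Wild type mice were sampled at postnatal day 48. Mice of the rd10 strain, which carries a Pde6b mutation that causes rod photoreceptors to degenerate, were sampled at day 61, and the labels call their retinae degenerated. Mice expressing green fluorescent protein (GFP) were labelled normal and were read as the group sampled at day 42, the age given for a line written as Gg13. The labels name neither the promoter that drives GFP nor the strain background, and age coincides with genotype, so that the effects of age and genotype cannot be told apart.

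Oxidative phosphorylation passes electrons from NADH and succinate through complexes I and II to coenzyme Q, then through complex III and cytochrome c to complex IV, which reduces oxygen. Complexes I, III and IV pump protons across the inner mitochondrial membrane, and complex V, the ATP synthase, uses the proton gradient to make ATP. The retina is among the most oxygen-demanding tissues, and photoreceptors pack mitochondria densely into their inner segments.

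The labelled tissue and condition could be read from the markers. All 18 rod markers were lower in rd10 than in wild type, and their summed level was 1472 to 2283 CPM (counts scaled to a common library size with TMM factors) in the rd10 libraries against 96470 to 131300 CPM in the 6 normal libraries. Markers of Müller glia were higher for 9 of 10 genes, those of microglia for 9 of 10 and those of bipolar cells for 8 of 11. In bulk tissue, fewer cells of a type and less RNA per cell cannot be told apart. Library totals ran from 9597635 to 12149448 counts, so that 1 CPM stood for 8.72 to 13.6 counts. Transcripts of lens crystallins stood apart in 4 libraries: Cryaa was at 2151 CPM in wild type 2, 955 CPM in wild type 3, 2267 CPM in rd10 2 and 2018 CPM in GFP 1, and at most 10.4 CPM in the other 5. Wild type 3 and GFP 2 also stood apart from the other normal libraries on the second principal component. The labels call the replicates biological.

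The members as a group were low in all rd10 libraries, but the wild type and GFP libraries were far apart among themselves. Their summed level was 11050, 15400 and 14580 CPM in wild type 1 to 3, 10330, 10210 and 8809 CPM in rd10 1 to 3, and 10930, 18980 and 12950 CPM in GFP 1 to 3. All 3 rd10 libraries lay below all 6 normal libraries on this scale, by a narrow margin against wild type 1 and GFP 1, and GFP 2 was highest. The group means were 13670 ± 2314, 9786 ± 848 and 14290 ± 4186 CPM (SD, n = 3 each). As a share of each library's raw total, the members held 1.05%, 1.38% and 1.45% of wild type counts, 1.20%, 1.20% and 0.983% of rd10 counts and 1.02%, 1.73% and 1.19% of GFP counts, and on that scale the groups overlapped. Taking each gene relative to its mean over the 9 libraries, the median member stood at log2 -0.18 in wild type 1 and -0.14 in GFP 1, close to -0.22 in rd10 1 and -0.18 in rd10 2. It stood at 0.29 and 0.31 in wild type 2 and 3, at 0.69 in GFP 2 and at -0.50 in rd10 3.

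**Figure D1:**
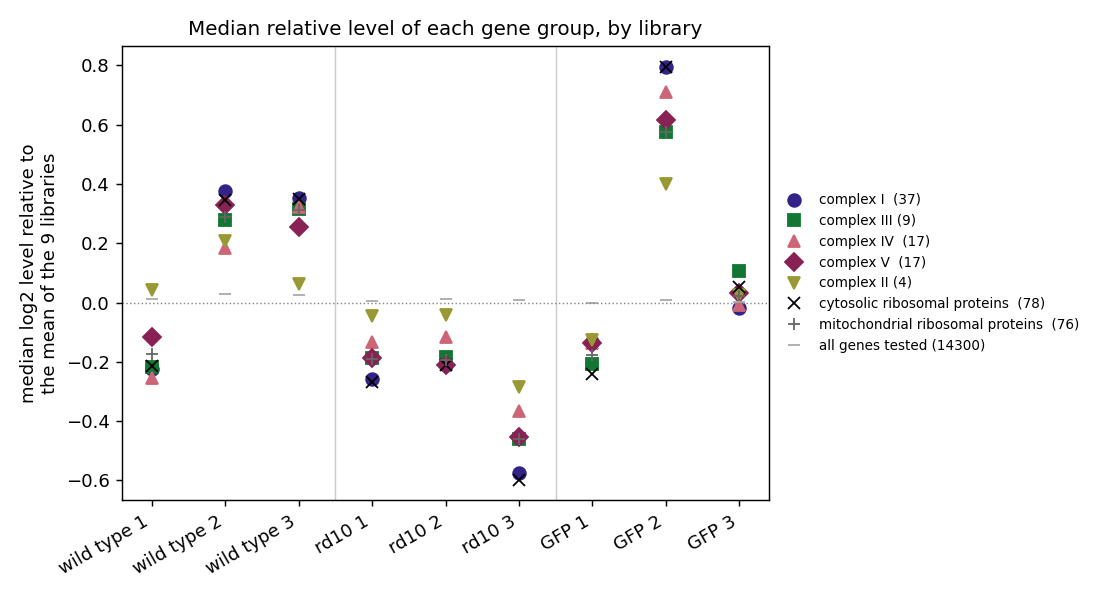
Median log2 level of each gene group in each library, relative to each gene's mean over the 9 libraries, with the number of genes tested in parentheses. The complexes moved together from library to library, as did the ribosomal protein families: GFP 2 was highest, rd10 3 lowest, and GFP 1 and wild type 1 lay near rd10 1 and rd10 2, apart from complex II, where wild type 1 (0.04) lay beside wild type 3 (0.06).

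In rd10 against wild type, 9 of the 85 members tested were lower, 0 were higher and 76 did not pass (edgeR quasi-likelihood test, Benjamini-Hochberg adjusted p under 0.05 over 14300 genes). The 9 are 10.6% of the members tested, against 13.9% of all genes tested that were lower, so the share that fell was not above that of all genes. The 0 higher members stand against 14.5% of all genes that were higher. Among all genes tested with transcripts under 1000 bases, 2.74% were higher, and 49 of the 85 members tested were that short. At an unadjusted p under 0.05 there were 26 members (30.6%), against 41.5% of all genes tested. The fitted difference was negative in 81 of 85 members, with a median log2 difference of -0.46, while the median of all genes tested was -0.03. The 3 rd10 libraries lay entirely below the 3 wild type libraries for 30 of the 85 members, where 24.4% of all genes tested did so. They lay entirely above the wild type libraries for 1 member of 85, where 26.1% of all genes tested did so. That member, Cox6a2, passed the filter on low counts only through its rd10 libraries. The remaining 2 members had too few counts to be tested: Cox8c, the testis isoform of a complex IV subunit, had 0 counts in all libraries, and Cox7b2, another testis isoform, had 7 counts over the wild type libraries, 0 over rd10 and 6 over GFP.

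The number of members called turned on single libraries. It was 15 without wild type 1, 2 without wild type 2, 4 without wild type 3, 3 without rd10 1, 3 without rd10 2, 2 without rd10 3, 14 without GFP 1 and 23 without GFP 2. The share of all genes that were lower moved as well: it was 11.8%, 9.87% and 10% without wild type 1, 2 and 3, 8.21%, 8.53% and 8.80% without rd10 1, 2 and 3, and 13.3% and 17.4% without GFP 1 and GFP 2. Without the 4 libraries with lens transcripts, which leaves wild type 1 alone in its group and takes it to vary like the other groups, 0 members passed and the median was -0.16, while the calls over all genes dropped to 3.11% lower and 0.585% higher. Scaling by library totals moved the median of all genes to 0.25 and the split over all genes from 1988 lower and 2067 higher to 1077 lower and 3604 higher. On that scale 3 members were lower and 1, Cox6a2, was higher, and the members' median was -0.17, again below that of all genes. Cox6a2 passed the filter on low counts only through its rd10 libraries.

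**Figure D2:**
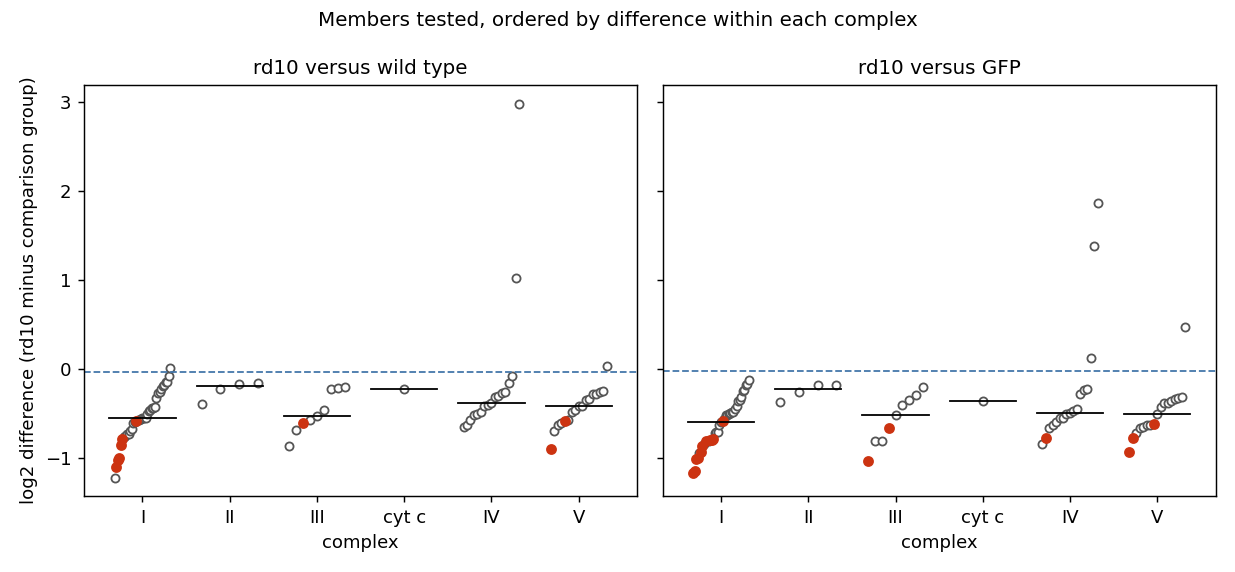
Fitted log2 difference of each of the 85 members tested, in rd10 against wild type and in rd10 against GFP, ordered within each complex. Filled red points have an adjusted p under 0.05, black bars are the medians of a complex and the dashed line is the median of all genes tested. Nearly all points lie below the dashed line. The filled points are mostly in complex I, which also has the most members tested (37). The highest points in complex IV are Cox6a2 and Cox8b.

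Complex I, the NADH dehydrogenase, held 6 of the 9 members that fell when counted by symbol, among them Ndufa4, which is now assigned to complex IV. Complex I also held 37 of the 85 members tested, and the 6 are 16.2% of its genes, against 13.9% of all genes tested. The median log2 difference over its 37 genes was -0.55, and 31 did not pass. Ndufa10, an accessory subunit of the membrane arm, was at 170.1, 239.7 and 215 CPM in wild type, 123, 108 and 114 CPM in rd10 and 172, 229 and 204 CPM in GFP. No rd10 library reached the level of any normal library. Ndufa10 was 1.81-fold lower than in wild type (log2 -0.86, SE 0.17, adjusted p = 0.00520 by edgeR). Ndufa10 passed without any single library, and lost the call in 1 setting, without the 4 libraries with lens transcripts (adjusted p = 0.347 by edgeR). Over all 21 alternatives its adjusted p ran from 5.05e-05 to 0.347.

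The largest fall of a member past the threshold was that of Ndufa4. Ndufa4 was at 288, 446 and 421 CPM in wild type, 196, 200.1 and 141 CPM in rd10 and 269, 556 and 384 CPM in GFP. Its rd10 libraries lay below the other 6, and it was 2.15-fold lower (log2 -1.11, SE 0.27, adjusted p = 0.0136 by edgeR). The call ended without wild type 2 (adjusted p = 0.0509), without rd10 3 (0.0602) and without the lens libraries (0.279, edgeR), over a range of 0.000802 to 0.279 in all alternatives. Ndufb11, an accessory subunit encoded on the X chromosome, was at 150.3, 251 and 219.8 CPM in wild type, 115, 122 and 68.8 CPM in rd10 and 155, 326.5 and 195 CPM in GFP. It was 2.03-fold lower (log2 -1.03, SE 0.31, adjusted p = 0.0322), but it overlaps Rbm10 on the opposite strand, and no use of strand in the counting is stated, so reads of the pair cannot be told apart. Ndufb8, an accessory subunit of the membrane arm, was at 107, 135 and 140.5 CPM in wild type and 81.0, 86.4 and 54.3 CPM in rd10, 1.73-fold lower (adjusted p = 0.0392). Ndufa9, an accessory subunit of the peripheral arm, was at 74.9, 105 and 101 CPM in wild type and 69.4, 64.4 and 53.9 CPM in rd10, 1.50-fold lower (adjusted p = 0.0420). The gap between the groups was narrow for Ndufa9, where rd10 1 and wild type 1 were the neighbours. Leaving out any one of wild type 2, wild type 3 or the rd10 libraries ended the calls of Ndufb11 (adjusted p = 0.0523 to 0.117), Ndufb8 (0.0595 to 0.144) and Ndufa9 (0.0740 to 0.157), and leaving out GFP 3 ended those of Ndufb8 (0.0507) and Ndufa9 (0.0650, edgeR). Over all alternatives the adjusted p ran from 0.00655 to 0.385 for Ndufb11, from 0.00689 to 0.384 for Ndufb8 and from 0.0187 to 0.643 for Ndufa9.

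At the other end of complex I stood Ndufc2, a small accessory subunit. It was at 82.1, 85.2 and 119 CPM in wild type and 107, 117.5 and 63.9 CPM in rd10, with a log2 difference of 0.01 (SE 0.35, adjusted p = 0.984 by edgeR), and the groups overlapped. Ndufa4l2, a paralogue of Ndufa4 known as a hypoxia-induced gene, had the lowest log2 difference of the complex, -1.22, on few counts. It was at 1.41, 4.04 and 3.61 CPM in wild type and 0.474, 1.93 and 1.48 CPM in rd10, with overlapping groups and an adjusted p of 0.138 (edgeR).

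**Figure D3:**
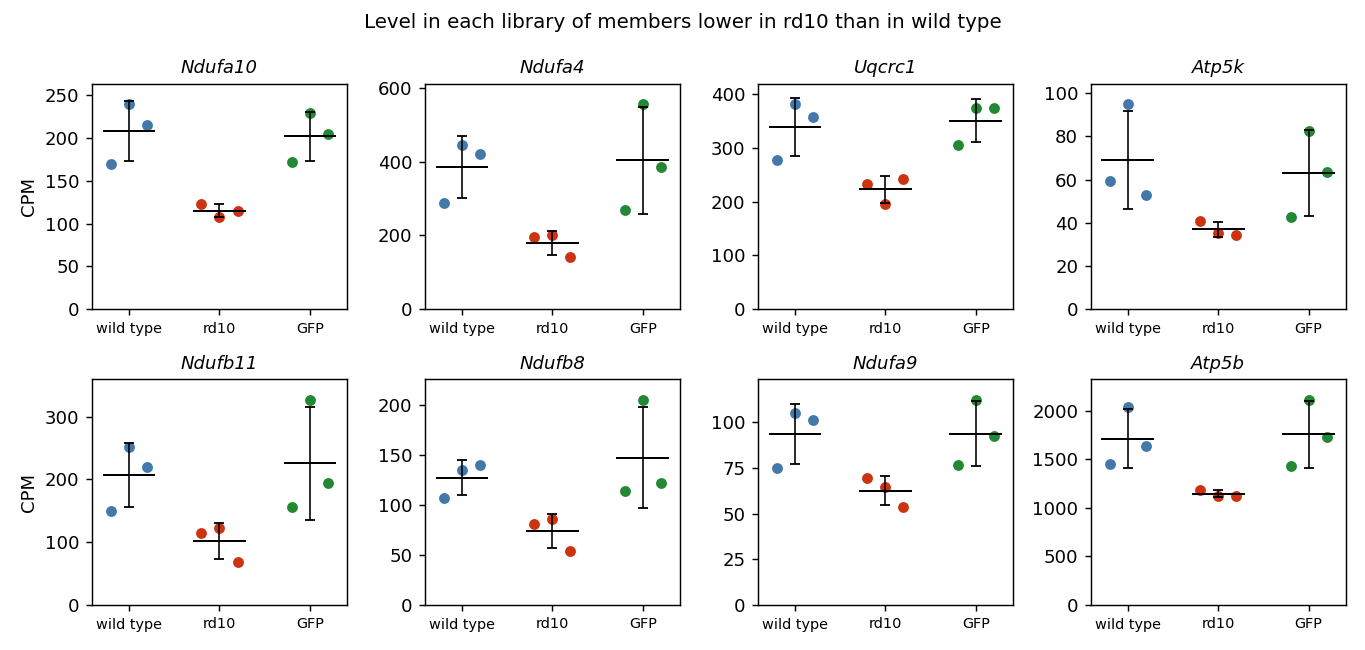
Level of 8 of the 9 members that were lower in rd10 than in wild type, in CPM from 0, with 1 point per library, the group mean as a bar and the SD of 3 libraries as the error bar. Each gene has its 3 rd10 libraries below its 3 wild type and 3 GFP libraries. For Ndufa10 the gap is wider than the spread of the rd10 libraries, and for Ndufa9 and Atp5k it is narrow.

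None of the 4 genes of complex II, the succinate dehydrogenase that also serves the citric acid cycle, passed the test, and 0 had an unadjusted p under 0.05 by edgeR. Over all genes tested, 13.9% were lower, 14.5% were higher and 41.5% had an unadjusted p under 0.05, and 4 genes are few. The median log2 difference of complex II was -0.20, the smallest of the 5 complexes. Sdha, the flavoprotein that oxidises succinate, was at 415, 449 and 385 CPM in wild type, 376, 355 and 334 CPM in rd10 and 398, 416 and 392 CPM in GFP. Its rd10 libraries were below the rest by little (log2 -0.23, SE 0.14, adjusted p = 0.244 by edgeR). Sdhb, the iron-sulfur subunit, was at 101.8 ± 17.8 CPM in wild type and 91.0 ± 11.7 CPM in rd10 (SD, n = 3). The membrane anchors Sdhc and Sdhd had log2 differences of -0.16 and -0.40 (adjusted p = 0.647 and 0.122 by edgeR).

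Complex III passes electrons from coenzyme Q to cytochrome c. In it, 1 of 9 genes fell (11.1%, against 13.9% of all genes tested), and the median log2 difference was -0.52. Uqcrc1, a core subunit, was at 278, 381 and 358 CPM in wild type, 232, 195 and 241 CPM in rd10 and 305, 374 and 374 CPM in GFP. The groups did not overlap, and Uqcrc1 was 1.52-fold lower (log2 -0.61, SE 0.18, adjusted p = 0.0266 by edgeR), a call lost without wild type 2, wild type 3 or any one of the rd10 libraries (adjusted p = 0.0563 to 0.114, and 0.00592 to 0.691 over all alternatives). Its partner core subunit Uqcrc2 had a log2 difference of -0.23 (adjusted p = 0.359) and overlapping groups. Uqcrh, the hinge protein, had the lowest difference of the complex. It was at 71.5, 86.3 and 102 CPM in wild type and 47.7, 62.6 and 32.7 CPM in rd10, without overlap, and its adjusted p of 0.0689 (edgeR) was under 0.05 in 7 of 21 alternatives (range 0.0114 to 0.325). Uqcrfs1, the Rieske iron-sulfur protein, had the highest difference, -0.20 (adjusted p = 0.596). Cyc1, cytochrome c1 of the same complex, was at 163 ± 38.3 CPM in wild type and 119 ± 12.1 CPM in rd10 (adjusted p = 0.132 by edgeR across all genes). Cycs, the mobile cytochrome c that also acts in apoptosis, was at 91.9 ± 9.78 CPM in wild type and 78.7 ± 18.4 CPM in rd10 (SD, n = 3, adjusted p = 0.577 by edgeR).

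Genes with Cox symbols were taken here as complex IV (cytochrome c oxidase, without Ndufa4). Of the 17 tested, 0 were lower (13.9% of all genes tested) and 0 higher (14.5%) by edgeR. At an unadjusted p under 0.05 there were 3 (17.6%, against 41.5% of all genes), and the median log2 difference was -0.38. Several subunits of complex IV come as isoforms, and the widespread isoforms were far more abundant per length than the others. Per kilobase of transcript, Cox6a1 was at 457 and Cox6a2 at 0.236 CPM in wild type, Cox8a at 438 and Cox8b at 5.27, Cox4i1 at 444 and Cox4i2 at 41.9, Cox6b1 at 399 and Cox6b2 at 15.6, and Cox7a2 at 183 and Cox7a1 at 13.4. The retina therefore held mainly the transcripts of the widespread isoforms, in rd10 as well, where Cox6a1 was at 351 and Cox6a2 at 2.02 CPM per kilobase. Cox4i1 was at 339.8 ± 73.1 CPM in wild type and 257 ± 32.5 CPM in rd10, and Cox6c, with the lowest log2 difference of the complex, was at -0.65 (adjusted p = 0.224 and 0.197 by edgeR). Cox6a1, Cox6b1, Cox7a2, Cox7b and Cox8a had log2 differences of -0.38, -0.51, -0.48, -0.31 and -0.42, none of which passed. Cox7a2l, known for its part in joining complexes III and IV, was at -0.57 (adjusted p = 0.0895) and passed in 1 setting, without GFP 2 (0.0483, in a range from 0.0483 to 0.620, edgeR).

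Of the 4 members with a positive difference, 2 were isoforms typical of muscle, Cox6a2 and Cox8b. Cox6a2, the heart and skeletal muscle isoform, was at 0, 0.481 and 0 CPM in wild type, 1.66, 1.21 and 1.25 CPM in rd10 and 0, 0.459 and 0.667 CPM in GFP. These values rest on 5 counts over the wild type libraries, 53 over rd10 and 11 over GFP, and each rd10 library was above every normal library. Cox6a2 passed the filter on low counts (minimum count 10) only through its rd10 libraries, so this separation and its test are not independent of the filter. The log2 difference from wild type was 2.98 (SE 1.08, adjusted p = 0.0606 by edgeR), and the adjusted p was under 0.05 in 7 of 21 alternatives, among them without wild type 2, GFP 1 or GFP 2 (0.0302, 0.0348 and 0.0435, in a range from 0.0238 to 0.162). The fitted log2 difference ran from 2.43 to 7.02 over the alternatives and was 6.95 without wild type 2, where the wild type libraries that remain have 0 counts, so its size rests on the fit and is no bound. Cox8b, the other muscle isoform, was at 2.42, 0.962 and 2.31 CPM in wild type, 4.66, 4.91 and 2.07 CPM in rd10 and 0.998, 2.64 and 0.858 CPM in GFP. The third rd10 library lay within the wild type range, and the difference did not pass (log2 1.03, adjusted p = 0.179 by edgeR). Cox7a1, the third muscle isoform, had overlapping groups and a log2 difference of -0.27 (adjusted p = 0.738). The markers of skeletal and eye muscle were low: 4 of 11 had enough counts to be tested, and their summed level ran from 11.5 to 14.4 CPM in wild type, from 6.77 to 13.4 CPM in GFP and from 6.12 to 8.04 CPM in rd10. Their part in the difference was not tested. Cox6a2 overlaps Itgad, an integrin gene, on the opposite strand, so reads of the pair cannot be told apart.

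In complex V, the ATP synthase, 2 of 17 genes fell (11.8%, against 13.9% of all genes tested), and the median log2 difference was -0.42. Atp5b, the catalytic beta subunit and the member with the highest level per length in wild type (891 CPM per kilobase), was at 1445, 2040.0 and 1639 CPM in wild type, 1184, 1124 and 1121 CPM in rd10 and 1425, 2110.0 and 1726 CPM in GFP. The rd10 libraries were close to each other and below the other 6, and Atp5b was 1.50-fold lower (log2 -0.58, SE 0.19, adjusted p = 0.0425 by edgeR). The call was lost without any one of wild type 2, wild type 3, GFP 3 or the rd10 libraries (adjusted p = 0.0658 to 0.141, and 0.0152 to 0.608 over all alternatives). Atp5k, the small subunit e of the membrane part, was at 59.2, 95.0 and 52.8 CPM in wild type, 41.0, 35.3 and 34.4 CPM in rd10 and 42.9, 82.6 and 63.7 CPM in GFP. It was 1.87-fold lower (log2 -0.90, SE 0.27, adjusted p = 0.0291 by edgeR), and this call was lost without wild type 2 (0.123) or any one of the rd10 libraries (0.0616 to 0.0962, and 0.00575 to 0.291 over all alternatives). Atp5a1, the alpha subunit that alternates with beta in the catalytic ring, was at 864, 1117 and 864 CPM in wild type and 798, 712 and 752 CPM in rd10 (log2 -0.33, adjusted p = 0.145 by edgeR). The 3 genes for the membrane ring subunit c, Atp5g1, Atp5g2 and Atp5g3, had log2 differences of -0.63, -0.46 and -0.28. Of these, Atp5g1 had no overlap between the groups and passed in 3 of 21 alternatives, among them without GFP 2 (adjusted p = 0.0246, in a range from 0.0246 to 0.665). Atp5s, which is not known as a subunit, had the highest difference, 0.03 (adjusted p = 0.943 by edgeR).

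Promoters are shown for 4 of the 8 members that fell and had a promoter in the table. They are the 3 that hold a recognition motif of a factor known to act on respiratory genes, and Ndufa10. The promoter of Ndufa10, the member with the lowest adjusted p, holds none of the motifs searched, and neither do those not shown. Each sequence runs from 250 bases before to 50 bases after the transcription start in RefSeq, on GRCm38.p6, and capitals mark motif matches. Uqcrc1 lies at chr9:108936398-108936697 (plus strand), Atp5k at chr5:108434350-108434649 (minus), Ndufa9 at chr6:126849095-126849394 (minus) and Ndufa10 at chr1:92473709-92474008 (minus).
Uqcrc1: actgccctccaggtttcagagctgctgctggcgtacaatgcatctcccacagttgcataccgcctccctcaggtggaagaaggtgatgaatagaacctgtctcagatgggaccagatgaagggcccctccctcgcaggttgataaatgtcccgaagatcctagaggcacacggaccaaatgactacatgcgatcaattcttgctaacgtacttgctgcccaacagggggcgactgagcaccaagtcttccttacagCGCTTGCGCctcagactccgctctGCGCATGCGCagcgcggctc
Atp5k: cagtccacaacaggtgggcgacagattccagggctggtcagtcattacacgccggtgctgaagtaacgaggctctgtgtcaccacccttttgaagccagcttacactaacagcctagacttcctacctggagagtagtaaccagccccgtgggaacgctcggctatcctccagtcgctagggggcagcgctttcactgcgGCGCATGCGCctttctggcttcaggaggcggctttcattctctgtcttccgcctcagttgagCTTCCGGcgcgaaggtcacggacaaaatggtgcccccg
Ndufa9: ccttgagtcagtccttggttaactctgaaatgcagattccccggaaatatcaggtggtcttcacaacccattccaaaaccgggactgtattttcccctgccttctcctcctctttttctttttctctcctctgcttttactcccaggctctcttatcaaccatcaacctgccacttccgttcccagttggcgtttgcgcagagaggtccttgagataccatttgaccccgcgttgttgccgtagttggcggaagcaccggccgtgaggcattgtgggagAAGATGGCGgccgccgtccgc
Ndufa10: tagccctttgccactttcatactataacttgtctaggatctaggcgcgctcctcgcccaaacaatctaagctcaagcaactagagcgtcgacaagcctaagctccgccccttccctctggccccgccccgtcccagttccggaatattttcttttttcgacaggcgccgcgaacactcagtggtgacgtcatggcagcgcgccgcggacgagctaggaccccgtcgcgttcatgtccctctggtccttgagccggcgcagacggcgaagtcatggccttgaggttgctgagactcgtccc
Uqcrc1 holds matches to the NRF1 motif GCGCANGCG, Atp5k holds NRF1 matches and a match to the ETS motif CCGGAAG, and Ndufa9 holds the YY1 motif AAGATGGCG. NRF1 matches on opposite strands overlap, because the motif is close to its own reverse complement.

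A promoter was found for 70 of the 87 members. Both strands were searched for the NRF1, ETS and YY1 motifs and for the estrogen-related receptor motif TCAAGGTCA. NRF1 matched in 20 of 70 members (28.6%) against 9.30% of promoters of all genes in the files, ETS in 15 (21.4%) against 12.1%, YY1 in 7 (10%) against 2.06% and the receptor motif in 2 (2.86%) against 0.290%. Of the 9 members that fell, 8 had a promoter in the table and 3 of these held a match. The share with any of these motifs was not counted over all members or all genes, so the 3 of 8 cannot be set beside it. A match is a run of letters and not evidence of binding.

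To compare members with each other inside a library, each log2 level was also taken relative to the median member of that library, which removes what all members shared. On this scale the 3 rd10 libraries lay below all 6 normal libraries for 6 of the 85 members tested and above them for 10. Over all genes tested the shares were 5.18% and 33.8%. All genes were set against the same median member, which was itself low in rd10 on average. That raises their rd10 values, so these shares are no like background for the members. Among the 6 were Ndufa4, Ndufb11, Ndufb8, Ndufa12 and Atp5j2. Ndufa4 stood at 0.18, 0.27 and 0.22 in wild type, 0.00, 0.24 and 0.37 in GFP and -0.38, -0.36 and -0.53 in rd10. Relative to the median member, Ndufa4 was thus lower in rd10 by 0.64 log2 against the mean of the other 6 libraries. Ndufa10, Uqcrc1, Atp5b, Atp5k and Ndufa9, which fell on the CPM scale, overlapped the other libraries on this scale. The 10 above were Ndufs1, the largest subunit of complex I, Sdhb, Ndufa11, Ndufs4, Cox7c, Ndufb4, Cox6b2, Atp5s, Cox8b and Cox6a2. These members were chosen after their values were seen, and no test was made. Cox6a2 passed the filter on low counts only through its rd10 libraries.

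**Figure D4:**
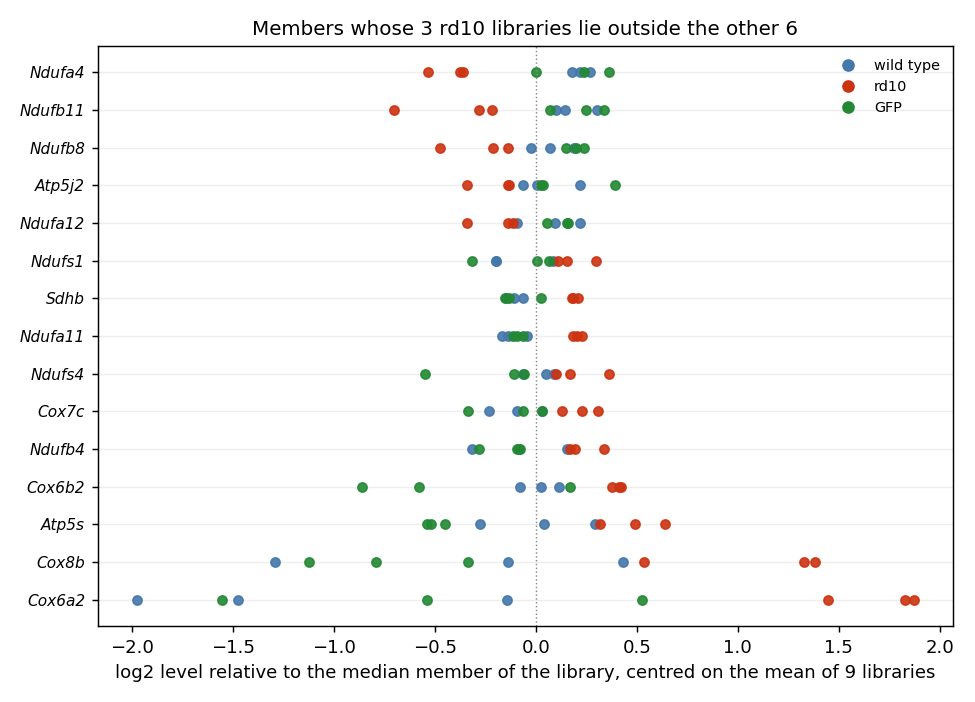
Log2 level relative to the median member of the same library, centred on the mean of the 9 libraries, for 15 of the 16 members whose 3 rd10 libraries lie outside the other 6. Among those drawn, Ndufa4 and Ndufb11 have the largest shifts to the left in rd10, and Cox8b and Cox6a2 the largest to the right, both on few counts.

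In rd10 against GFP, a comparison that uses the same rd10 libraries, 17 members were lower (15.0% of all genes tested were), 0 were higher (15.2% of all genes) and 68 did not pass (edgeR, adjusted p under 0.05), with 35 (41.2%) at an unadjusted p under 0.05, against 43.2% of all genes. The 17 are 20% of the members tested. Among all genes tested with transcripts under 1000 bases, 15.8% were lower and 4.17% higher. The median log2 difference of the members was -0.51, and that of all genes -0.02. The rd10 libraries lay below all GFP libraries for 37 of the 85 members (against 23.1% of all genes tested) and above them for 1 (against 25.1%). That 1 was Cox6a2, which passed the filter on low counts only through its rd10 libraries. By symbol, 11 of 37 genes of complex I fell (29.7%), 0 of 4 of complex II and 2 of 9 of complex III (22.2%). In complex IV 1 of 17 fell (5.88%) and in complex V 3 of 17 (17.6%), beside 15.0% of all genes tested. Ndufa10 was 1.76-fold lower (adjusted p = 0.00651), Ndufa4 2.25-fold (0.0102), Ndufb11 2.21-fold (0.0194), Uqcrc1 1.57-fold (0.0183), Atp5b 1.53-fold (0.0318) and Atp5k 1.71-fold (0.0495, edgeR). The single gene with a Cox symbol was Cox5a, a nuclear-encoded subunit, named here after its values were seen, at 100.3, 199 and 108 CPM in GFP and 80.5, 93.0 and 65.4 CPM in rd10 (adjusted p = 0.0382 by edgeR).

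The count of 17 also turned on single libraries. It was 5 without rd10 1, 7 without rd10 2, 4 without rd10 3, 26 without GFP 1, 6 without GFP 2 and 10 without GFP 3. The share of all genes that were lower was 9.03%, 9.45% and 9.75% without rd10 1, 2 and 3, and 14.5%, 14.3% and 10.9% without GFP 1, 2 and 3. Without GFP 2 the median log2 difference was -0.22 and 3 members were higher, where 15% of all genes were higher. Without the libraries with lens transcripts, 9 members and 6.60% of all genes were lower, and the members' median was -0.72. Scaling by upper quartiles moved the split over all genes from 2138 lower and 2174 higher to 1644 lower and 2745 higher, and that of the members to 6 lower.

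In GFP against wild type, no member passed the test. Of 85 members, 0 were lower (0% of all genes tested), 0 were higher (0%), and 0 had an unadjusted p under 0.05, where 214 of all 14300 genes did (1.50%, edgeR). DESeq2 also called 0 members. The median log2 difference was 0.07, with a range from -0.44 for Atp5s to 1.12 for Cox6a2. The sign of the median turned on single libraries: it was -0.05 without wild type 1, -0.22 without GFP 2 and 0.24 without GFP 1, and 0.63 without the lens libraries. The 3 libraries of each group were spread widely, as the plot of group medians by library shows, and a p that misses the threshold does not show that the groups are alike.

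Other gene families followed the members from library to library. The 78 tested genes of cytosolic ribosomal proteins, which build the ribosomes outside mitochondria, had a median log2 difference of -0.54 in rd10 against wild type, with 5 lower (6.41%, against 13.9% of all genes) and 0 higher. Their summed level was 18500, 27710 and 27260 CPM in wild type, 17570, 18260 and 14100 CPM in rd10 and 18570, 36700 and 22310 CPM in GFP. Wild type 1 and GFP 1 were again next to rd10, and GFP 2 was highest. The 76 genes of mitochondrial ribosomal proteins, which translate the subunits encoded by mitochondrial DNA, had a median of -0.44 with 10 lower (13.2%) and 0 higher, among them Mrpl49, which was at 127, 162 and 124 CPM in wild type and 55.7, 54.2 and 53.1 CPM in rd10 (log2 -1.34, adjusted p = 0.000529 by edgeR). The median of the members, -0.46, lay between those of the 2 ribosomal families.

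The members are also short genes, and the difference between groups followed transcript length. Their median transcript length was 865 bases, and that of all genes tested was 3059. Across the 14142 genes tested that have a length, log2 differences from wild type and lengths had a Spearman correlation of 0.24, as a description over genes that share libraries. The median log2 difference was -0.39 for all genes under 600 bases, -0.35 for 600 to 999, -0.28 for 1000 to 1499, -0.13 for 1500 to 2499, -0.03 for 2500 to 3999 and 0.19 for 4000 or more. Among genes under 1000 bases, the median was -0.47 for 49 members and -0.36 for all 840 tested. The 36 members of 1000 bases or more had a median of -0.40, with 5 lower (13.9%). Single lengths can be wrong: Atp5g1 was given 4715 bases, more than its whole span in the files, chr11:95934107-95937008. In the bins of all genes from 1000 bases up, 10.3% to 16.6% were lower. The share of all genes that were higher rose with length, from 0.613% under 600 bases to 21.8% at 4000 or more.

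Within libraries, the Spearman correlation of relative level with length across genes was -0.48 in wild type 3, -0.49 in GFP 2 and -0.25 in wild type 2, the 3 libraries in which the members were highest. It was 0.33 in rd10 3, 0.34 in GFP 1 and 0.29 in wild type 1, and between 0.07 and 0.16 in rd10 1, rd10 2 and GFP 3. With the trend of length removed in each library, the members' median moved to -0.17 against -0.04 for all genes, and 14 members were lower and 2 higher (edgeR), where 19.1% of all genes were lower and 16.8% higher. Ndufa10 and Ndufa4 then had log2 differences of -0.76 and -0.75 (adjusted p = 0.00133 and 0.00169). Atp5k was at -0.48 and lost its call (0.155), and Cox8b and Cox6a2 were higher (1.37 and 3.33, adjusted p = 0.0385 and 0.0283). Cox6a2 passed the filter on low counts only through its rd10 libraries, so its test is not independent of that filter. The median of complex IV moved to -0.03. The part of transcript length in the result was not tested further.

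**Figure D5:**
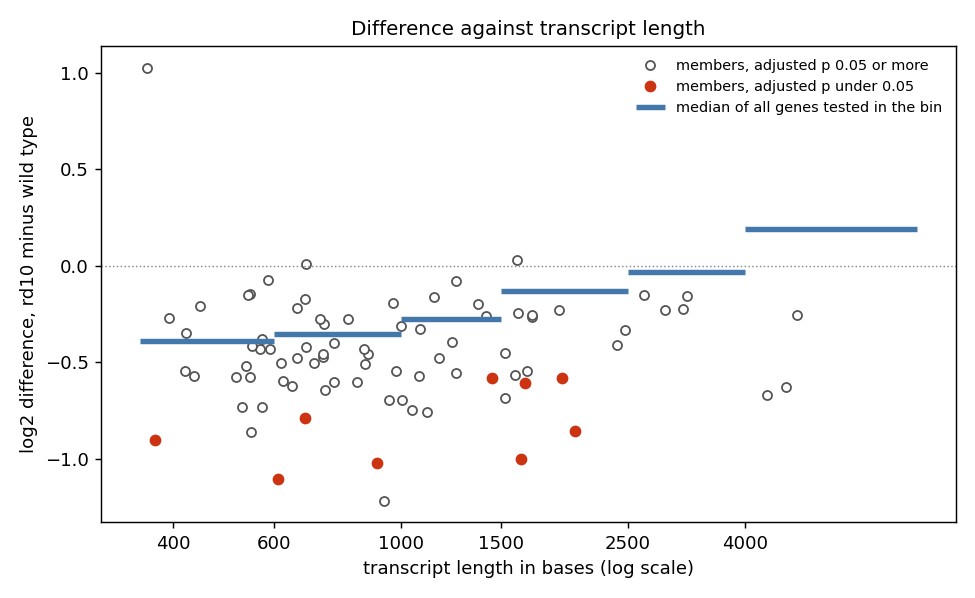
Fitted log2 difference in rd10 against wild type for 84 members tested, against transcript length on a log scale, with the median of all genes tested in 6 length bins as blue bars. Cox6a2, at 2.98, is above the range drawn, and the first and last bars stand for all genes under 600 bases and of 4000 or more. The median of all genes rises from -0.39 to 0.19 with length. The 9 members past the threshold, with lengths from 371 to 2020 bases, lie below the bars, which largely follows from their choice as lower members.

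Genes that serve the complexes without being part of them were read from lists, beside the 13.9% of all genes that were lower and the 14.5% that were higher. Of 42 tested assembly factors, which build the complexes, 7 fell (16.7%), 0 rose and the median log2 difference was -0.36. AI462493, listed under the newer symbol Uqcc3 and needed for complex III, was at 61.9, 64.2 and 61.3 CPM in wild type and 16.2, 15.3 and 14.8 CPM in rd10 (log2 -2.02, adjusted p = 1.09e-05). Sdhaf1, an assembly factor of complex II, was at 31.0, 44.6 and 43.5 CPM in wild type and 18.7, 15.6 and 18.2 CPM in rd10 (log2 -1.18, adjusted p = 0.00469 by edgeR). Wild type 1 was thus not low for AI462493, unlike the median subunit.

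Of 20 transcription and biogenesis factors of mitochondria, 7 fell (35%), 1 rose (5%) and 12 did not pass. Esrrb, an estrogen-related receptor known from rods, was at 502, 655 and 219.8 CPM in wild type and 7.66, 11.8 and 13.2 CPM in rd10 (log2 -5.40, adjusted p = 8.96e-06). Ppargc1b, a coactivator of respiratory genes, was at 64.3, 57.4 and 66.0 CPM in wild type and 15.3, 15.5 and 23.2 CPM in rd10 (log2 -1.80, adjusted p = 7.52e-05 by edgeR). Its rd10 libraries were far below the rest. Polg2, the accessory subunit of the mitochondrial DNA polymerase, had a log2 difference of -3.21 (adjusted p = 0.000794).

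Of 18 tested carriers and related genes of the inner membrane, 2 fell (11.1%): Slc25a5, an ADP/ATP carrier, was at 294, 386 and 319 CPM in wild type and 155, 145 and 124 CPM in rd10 (log2 -1.24, adjusted p = 0.00217), and Slc25a10, the dicarboxylate carrier, had a log2 difference of -0.91 (adjusted p = 0.00278 by edgeR). Of 6 tested creatine kinase genes and their partners, Ckmt1, the mitochondrial creatine kinase, was the 1 that fell, from 189.9 ± 34.9 to 85.0 ± 5.36 CPM (SD, n = 3, log2 -1.16, adjusted p = 0.00129 by edgeR). Ckb, the cytosolic brain isoform, was at 1572 ± 233 CPM in wild type and 1752 ± 8.18 CPM in rd10 (adjusted p = 0.528 by edgeR across all genes).

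Rod markers, glial markers and these gene groups moved together with genotype, and their part in the members' differences was not tested. Many subunit genes have processed pseudogenes or near-identical copies, and how reads with several matches were counted is not given in the sources used here, so single members may carry reads of a copy or have lost reads to one. On mm9, the positions in the files were chr1:94336296-94370335 for Ndufa10, chr6:11850373-11857446 for Ndufa4, chrX:20192452-20194690 for Ndufb11, chr9:108838661-108851686 for Uqcrc1, chr10:127520363-127527444 for Atp5b and chr5:108862272-108863397 for Atp5k.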

How the data were processed

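RNA was measured in 9 whole retina libraries, and the authors deposited raw read counts per gene, whole numbers for the same 21769 genes in each library. Per the submitters' processing notes the build was mm9. The aligner, counting program, annotation and strand setting are not given in the sources used here. Library totals were 9597635 to 12149448 counts.

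Members, gene lists and the genes to be named were chosen with earlier results of these data known. The filterByExpr step of edgeR 4.0.16 (R 4.3.3) (minimum count 10, minimum total 15) left 14300 genes and 85 of 87 members. TMM factors set the library sizes. One edgeR model with a mean per group was fitted to all 9 libraries, and pairs of groups were compared by its quasi-likelihood test with Benjamini-Hochberg adjustment over all genes tested. Every adjusted p given is from this edgeR test or, for an alternative, from its refit, except where DESeq2 is named. Ranges and counts of passes over the 21 alternatives include DESeq2. Named were, per complex, up to 6 members past an adjusted p of 0.05, the members with the lowest and highest difference, and fixed members and isoform groups, and up to 3 genes of each other list; 1 of the 9 lower members is counted but not reported here by name.

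Alternatives were other scalings, filters, DESeq2 1.42.0, left-out libraries, a replicate block, and an offset for transcript length. Relative levels were log2 CPM with a prior count of 2. Lengths are those of the principal transcript in GENCODE M21 or, where none is marked, the median length of the gene's transcripts. A length was found for 98.9% of genes tested. This choice of transcript was made after seeing the data. The trend was a lowess curve per library (span 0.3). The procedure was tested on simulated data. Same-numbered libraries deviated from their group means with correlations from -0.372 to 0.357, and the labels name no shared animal or batch, so numbers were not taken as pairs. Replicates differed by more than sampling noise (chi-square per degree of freedom 13.1 to 76.1).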

Additional observations from a re-analysis of the deposited data

How the results depend on the processing

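Every alternative kept the negative median of the members in rd10 against both normal groups, and no named gene that passed changed direction. In rd10 against wild type the count of lower members, 9, became 5 with upper quartile scaling, 3 with library totals and 14 with DESeq2. It became 22 with the 2 groups compared only, 14 with the length trend removed and 19 without wild type 3 and GFP 2. Over all genes, the lower share moved from 13.9% to 11.2%, 7.53%, 14.4%, 17.3%, 19.1% and 16.1%, in the same order. The members' count ranged from 2 to 23 when single libraries were left out, where 8.21% to 17.4% of all genes were lower. The count of higher members, 0, became 1 with library totals, DESeq2 or the 2 groups only and 2 with the length trend removed. Cox6a2, which passed the edgeR filter on low counts only through its rd10 libraries, was among those called in each of these settings. Over all genes, 25.2%, 16.3%, 18.9% and 16.8% were higher in these settings. The count ranged from 0 to 1 when single libraries were left out, where 8.78% to 19.9% of all genes were higher. In rd10 against GFP the count of lower members, 17, became 6 with upper quartile scaling, 3 with library totals and 6 without wild type 3 and GFP 2. It became 23 with DESeq2 and 21 with the length trend removed. Over all genes, the lower share moved from 15% to 11.5%, 7.38%, 16%, 16.3% and 21%, in the same order. The members' count ranged from 4 to 26 when single libraries were left out, where 9.03% to 14.7% of all genes were lower. The count of higher members, 0, became 1 with library totals, 2 with the length trend removed and 3 without wild type 3 and GFP 2. Over all genes, 28.3%, 17.6% and 16.8% were higher in these settings. The count ranged from 0 to 3 when single libraries were left out, where 8.98% to 15.6% of all genes were higher. In GFP against wild type both counts stayed at 0 in all 21 alternatives. The median of the members in rd10 against wild type lay between -0.60 and -0.16, and in GFP against wild type between -0.22 and 0.63. With the replicate block, 11 members were lower than in wild type (7 of them among the 9) and 15 lower than in GFP (14 among the 17). Over all genes, 12.5% and 13.4% were lower. Ndufa9 and Atp5b lost their calls (adjusted p = 0.0526 and 0.0507 by edgeR), and the replicate numbers were not taken as pairs. At this depth, genes such as Cox6a2 and Cox8b rest on few counts.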
